A study of Mus musculus with 7 samples.

Results

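The endothelial cells of the adult mouse thyroid are the cells that line its blood vessels. They were picked from the sorted single cells of the gland by the transcripts they carried, and 239 of 578 tissue cells of sufficient depth met the rule, out of 2590 cells in the whole data set. A cell needed at least 1000 unique molecular identifiers (UMIs, molecular tags that mark single transcripts). Its mean value over 6 endothelial genes (Plvap, Emcn, Kdr, Cdh5, Egfl7 and Cldn5) on the deposited natural-log scale (1 was added to the UMIs per 10000 of a cell before the log) had to reach 0.5. That mean also had to exceed the means over 5 mural genes, 4 immune genes and 3 fibroblast genes, and thyroglobulin (Tg) had to stay under 300 UMIs per 10000. The cells were chosen by these values, so the levels of the 6 genes and the share of cells are given as a description without a test.

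Thyroid glands of wild type C57BL/6 mice were dissociated with collagenase and TrypLE, and viable cells were sorted without a gate for a cell type into 384-well plates for SORT-seq. The groups were primary tissue (2 samples), early passage thyroid follicular cell organoids (TFCOs, 2 samples) and late passage TFCOs (3 samples), all of the same genotype and strain. The series describes its samples as biological replicates, no age is given, and the methods name female mice as the source of organoids. Results below rest on the 2 tissue samples, and the TFCO samples are used only to show how often cultured epithelium met the same rule.

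The thyroid is one of the most richly perfused organs. Each follicle is wrapped by capillaries whose endothelium is perforated by fenestrae, small pores closed by a diaphragm that is built from the Plvap protein and that let iodide, TSH and thyroid hormone pass. Such capillaries are maintained in adult endocrine glands by VEGF-A from the epithelium, which acts on the receptors VEGFR2 (Kdr) and VEGFR1 (Flt1) of the endothelium.

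Of the 6 genes in the rule, 4 carried the selection. Plvap reached 29.9 UMIs per 10000 in tissue 1 and 24.3 in tissue 2. Emcn, which encodes the sialomucin endomucin of capillary and venous endothelium, reached 26.7 and 31.9. Kdr reached 14.7 and 14.8, and Cdh5, the adhesion molecule VE-cadherin of endothelial junctions, 3.37 and 3.93. In the mural, immune, fibroblast and follicular classes Kdr lay between 0.0839 and 0.937 in every sample, so the groups did not overlap for this gene, which is one of those that chose the cells.

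The other two genes of the rule were nearly absent. Egfl7, a secreted factor that is a standard endothelial marker, had 0 UMIs in tissue 1 and a level of 0.0461 in tissue 2. The tight junction gene Cldn5 had levels of 0.26 and 0.204, and was at 0 in the other classes. In the GENCODE annotation, exons of Egfl7 overlap on the same strand with the predicted gene Gm20532, which was looked up after the low value of Egfl7 had been seen. Gm20532 had levels of 1.14 and 1.18 in the endothelial cells and between 0.15 and 0.722 in the other classes. How reads of overlapping genes were counted is not given in the sources used here, and the part of this overlap in the low value of Egfl7 was not tested.

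The median cell inside the rule had a list mean of 1.73 and the highest 2.36. Just inside the minimum, the lowest list mean was 0.502, and just outside the highest was 0.497. Only 6 cells inside lay under 0.6, and 6 cells outside lay at 0.4 or above. A further 12 cells failed on Tg alone, the lowest of them at 376 UMIs per 10000, while the highest Tg inside was 246. Another 12 cells had enough of the endothelial genes but at least as much of another list.

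Among the kept tissue cells, the endothelial cells were the most numerous class by the rules used here. They made up 121 of 305 kept cells of tissue 1 (39.7%, exact Clopper-Pearson 95% interval 34.1 to 45.4) and 118 of 273 of tissue 2 (43.2%, 37.3 to 49.3), a mean of 41.4% ± 2.51 (SD, n = 2). The intervals overlap and cover counting error only. The other classes held 71 mural, 58 immune, 56 fibroblast and 95 follicular cells, and 59 cells stayed unclassed. A follicular cell here needed at least 1000 UMIs and Tg of 300 or more per 10000. The paper's own clustering of all tissue cells gave the opposite order, with more follicular than endothelial cells. In the TFCO samples 3 of 1457 kept cells met the endothelial rule, none with more than 8 UMIs of any of the 6 genes. In the TFCO samples without such a cell, 0 of 235 to 0 of 360 cells allow a share of up to 1.28% to 0.833%, taking 3 cells as the limit that a count of 0 allows.

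Depth was similar in the endothelial cells of both samples. The median cell held 3601 UMIs in tissue 1 and 3704 in tissue 2, with 2041 and 2125.5 detected genes. In tissue 2 a single cell held 151110 UMIs, against 12599 for the next deepest, and because levels are means over cells it counted as 1 of 118. Follicular cells were shallower (2233 and 2102 UMIs). The tissue plates summed to 1406925 and 1589528 UMIs over all their cells. Mitochondrial transcripts made up 1.29% and 1.42% of endothelial UMIs, against 10.8% and 7.14% in follicular cells. All plates use the same well barcodes, and 363 of them occur in both tissue samples, so a shared barcode does not mark a shared cell.

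Transcripts of other cell types were low but present. Every endothelial cell held Tg UMIs, the abundant product of follicular cells, with a median of 15.7 UMIs per 10000 in tissue 1 and 23.2 in tissue 2. Mural cells (12.6 and 19.8) and immune cells (14.0 and 20.7) had about as much. Follicular cells had 1191 and 972. Calca, the calcitonin gene of C cells, was seen in 24.0% and 17.8% of endothelial cells. The 12 mural markers summed to 3.01 and 3.08 in endothelial cells against 104 and 95.2 in mural cells, with 3 of them at 0, and their highest member in the endothelial cells was Cspg4 (a mean level of 1.41). The 12 immune markers summed to 1.28 and 0.731 against 84.2 and 89.8, and the 7 fibroblast markers to 1.84 and 0.889 against 131 and 99.7. The class rules use 5 of these mural, 4 of the immune and 3 of the fibroblast markers, and Tg, so their low sums were partly set by the choice of cells. The markers outside the rules summed to 1.97 and 1.99 for 7 mural genes (27.7 and 30.8 in mural cells), 0.713 and 0.368 for 8 immune genes (49.1 and 57.0 in immune cells) and 0.433 and 0.382 for 4 fibroblast genes (26.8 and 20.9 in fibroblast cells). For 14 follicular genes other than Tg they summed to 1.55 and 2.87, against 44.9 and 43.3 in follicular cells. The 5 erythroid markers summed to 5.92 and 1.42, led by Hbb-bs.

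The first comparison asked which genes set the endothelial cells apart from the other cells of the gland. Levels were averaged over the cells of a class in each sample, and log2(level + 1) was compared between the endothelial class and the mean of the mural, immune, fibroblast and follicular classes by limma with the tissue sample as a term. Tests covered the 4574 genes whose mean of the class means reached 0.5, leaving out the 19 genes that the class rules use. At an adjusted p (Benjamini-Hochberg) below 0.05, 537 genes were called higher (11.7% of those tested) and 332 lower (7.26%), each in the same direction in both samples. The median difference over all tested genes was 0.02 on the log2 scale. Of the 537 genes, 423 lay above each other class in both samples. With UMIs summed over cells instead of averaged, 397 were higher and 98 lower, and with each cell thinned to 1000 UMIs 310 and 76. A gene limited to endothelial cells passed the expression filter only through its level there, so calls among such genes are descriptive. Summing without the cells above 20000 UMIs gave 553 and 335.

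The leading gene was Flt1, whose product VEGFR1 binds VEGF-A and limits its access to VEGFR2. Flt1 stood at 42.0 UMIs per 10000 in tissue 1 and 39.4 in tissue 2, and no other class exceeded 6.66. Its log2 difference was 3.70 ± 0.18 (SE, limma adjusted p = 9.26e-10). It was detected in 97.5% and 100% of the endothelial cells. After thinning to 1000 UMIs this was 90.1% and 92.4%, against 11.3% and 9.52% of follicular cells, which are not known to make it and whose share before thinning was 30.2% and 35.7%.

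Of the 31 listed endothelial identity genes in the table, 23 were tested and each was called higher (median 2.20). They were picked for their endothelial expression, so this count is a description and no independent result. The 20 genes with the largest difference included surface and signalling proteins of vascular endothelium. Podxl, a sialomucin of the luminal surface, had levels of 16.9 and 16.1. Ptprb, the phosphatase VE-PTP that restrains Tie2 and VE-cadherin signalling, had 11.5 and 10.5. The Tie receptor gene Tie1 had 6.40 and 7.04. Adgrl4, an adhesion receptor of angiogenic endothelium, had 10.6 and 11.4, and Cd93 and Mmrn2, which encode a receptor and its matrix ligand, had 6.30 and 7.04, and 6.71 and 8.12. Ly6c1 (20.4 and 21.3) and Ly6a (14.4 and 16.6) encode GPI-anchored proteins of a family of similar genes, so that their reads may be shared with close copies. The lipid phosphatase genes Plpp1 (25.2 and 24.3) and Plpp3 (28.1 and 26.0) were also among the 20, with Cyyr1, Btnl9, Plcb1, Exoc3l2 and Mgll. For these 20 genes the log2 difference ran from 2.39 ± 0.19 for Nrp1 to that of Flt1, and in the plot of leading genes the endothelial samples lie to the right of each other class.

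**Figure D1:**
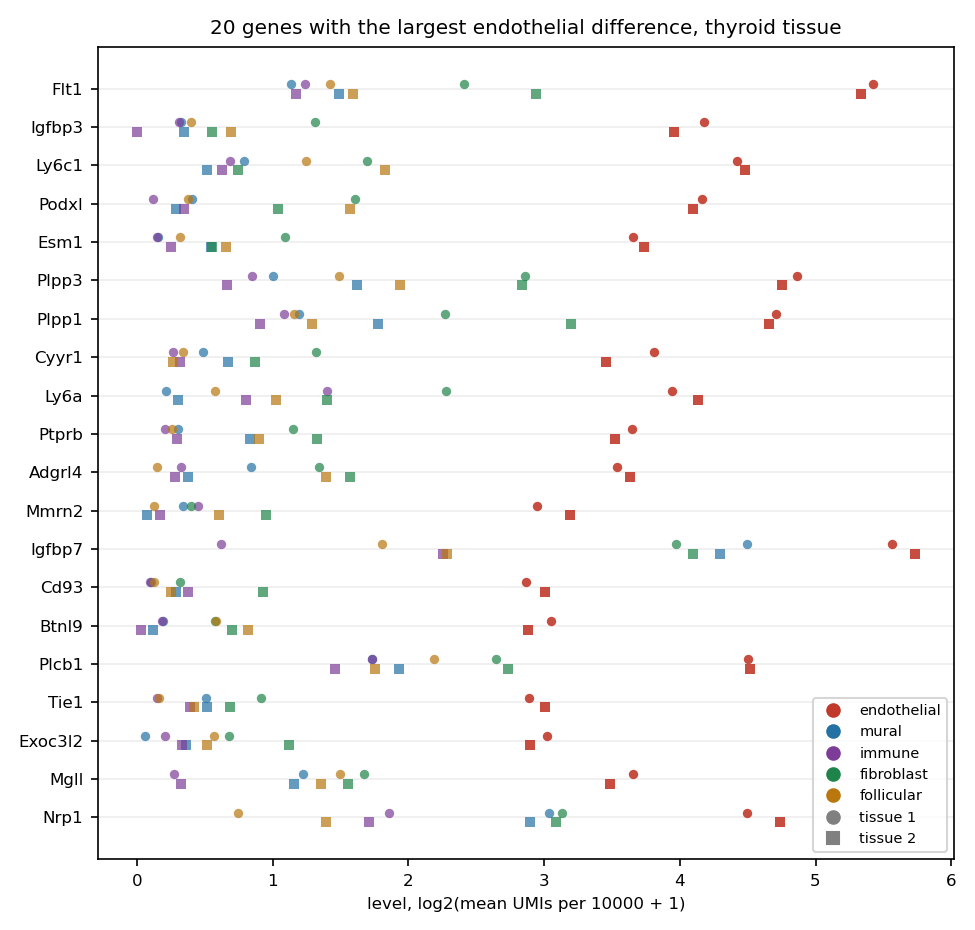
Level of the 20 genes with the largest endothelial difference in 5 cell classes of the thyroid tissue, as log2(mean UMIs per 10000 + 1), with circles for tissue 1 and squares for tissue 2. Both endothelial samples lie above the 8 values of the other classes for every gene shown, with Flt1 at 42.0 and 39.4 UMIs per 10000 before the log.

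Among the 20 genes were Igfbp3, Igfbp7 and Esm1, whose products are secreted. Igfbp3, which binds insulin-like growth factors, had levels of 17.1 and 14.5, and no more than 1.49 in any other class (log2 difference 3.57 ± 0.20). Igfbp7, a binding protein deposited in vascular basement membrane, had 46.4 and 52.2, with 21.6 and 18.7 in mural cells. Esm1, the proteoglycan endocan that VEGF signalling induces in sprouting endothelium, had 11.6 and 12.3 and at most 1.13 elsewhere (3.23 ± 0.19). Across TFCO cells, the level of Esm1 followed the well barcode with a correlation of 0.559, at levels of 0.029 to 0.078 per sample. In all, 6 of the 20 leading genes and 20 of the 90 genes with a difference described here against the other classes had such a correlation above 0.05, Flt1 (0.101), Plpp3 (0.0864) and Mmrn2 (0.0757) among them. The part of the barcode in the tissue values was not tested.

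The upstream sequences of Flt1 and Tie1 are shown because both genes are textbook targets of ETS-family transcription factors, whose endothelial members are described further on. RefSeq start sites on GRCm38.p6 gave a window for 14 of the 20 leading genes. Shown are the 250 bases before the start, with the ETS-type words AGGAAG and CGGAAG and their reverse complements CTTCCT and CTTCCG in capitals. Both genes lie on the minus strand, Flt1 with its window at chr5:147726012-147726261 and Tie1 at chr4:118489850-118490099. In the GENCODE annotation Tie1 starts at 118490061, so most of its window lies inside the gene as annotated there.
Flt1: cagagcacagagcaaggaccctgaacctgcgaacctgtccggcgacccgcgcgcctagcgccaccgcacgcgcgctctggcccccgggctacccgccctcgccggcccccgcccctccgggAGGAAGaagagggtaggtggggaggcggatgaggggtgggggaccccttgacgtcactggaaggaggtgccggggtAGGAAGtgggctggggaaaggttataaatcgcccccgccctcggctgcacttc
Tie1: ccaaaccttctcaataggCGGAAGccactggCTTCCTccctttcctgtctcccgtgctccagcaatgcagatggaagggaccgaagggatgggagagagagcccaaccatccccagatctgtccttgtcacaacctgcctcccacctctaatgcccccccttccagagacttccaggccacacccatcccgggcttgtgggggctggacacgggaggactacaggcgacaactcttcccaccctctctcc
Flt1 held AGGAAG at 2 positions, and Tie1 held AGGAAG and CGGAAG at 1 position each, counted on either strand. AGGAAG occurred in 38.4% of the 425 genes called higher that had a window, in 42.3% of 222 called lower and in 33.0% of 3452 tested. Over all 27025 genes with a RefSeq window, a set not limited to measured genes, it occurred in 32.3%. CGGAAG occurred in 18.1%, 16.2%, 23.8% and 15.3%. Their shares were thus close upstream of lower and of higher genes (not tested), and a match marks letters, not a bound site.

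The receptors and ligands of VEGF were measured as a group. Of the 10 genes in the table, 3 were tested besides Kdr and all 3 were called higher, with a median log2 difference of 2.39. Nrp1, a VEGF co-receptor, had levels of 21.5 and 25.7 and at most 7.78 in other classes. Its relative Nrp2 had 6.70 and 7.70 in endothelial cells and 3.75 to 6.26 elsewhere, a log2 difference of 0.56 ± 0.19 (limma adjusted p = 0.046) that was lost under 12 of 16 alternative settings. The VEGF-C receptor gene Flt4 was under the filter, at 1.28 and 1.37 against at most 0.218 elsewhere. Vegfa itself was at 0.0343 and 0.16 in endothelial cells and at 1.19 and 1.14 in follicular cells, and Vegfc at 0.972 and 0.96 in endothelial cells.

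In the Tie and angiopoietin group, 3 of 5 tested genes were higher and 1 lower, with a median of 0.56. Tie1 differed by 2.48 ± 0.18 and Ptprb by 2.92 ± 0.19. Tek, which encodes Tie2, had 9.76 and 8.64 in the endothelial cells and 3.20 to 8.97 in the other classes, so the classes overlapped. Its difference of 0.56 ± 0.18 (limma adjusted p = 0.04) was lost under 10 of 16 alternatives. In TFCO cells Tek reached 5.32 to 8.01 and followed the well barcode with a correlation of 0.667. Angptl2 was lower, at 0.0491 and 0.0936 against 4.03 and 5.05 in mural cells.

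Of 7 tested Notch and ephrin genes 5 were higher and 1 lower, with a median of 0.90. The receptor genes Notch1 (2.42 and 1.74) and Notch4 (1.40 and 2.16) were both higher, Notch4 by 1.19 ± 0.14. Efnb2, the ephrin ligand of arterial endothelium, had 1.89 and 1.65 and differed by 1.23 ± 0.14. The ligand Dll4 was under the filter, with 2.09 and 1.89 against at most 0.352 elsewhere. Heyl, a transcriptional target of Notch in mural cells, was lower, at 0.0648 and 0.0676 against 2.40 and 2.78 in mural cells, a call lost under 3 of 15 alternatives.

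Of 9 tested genes of BMP and ALK1 signalling, which keeps endothelium quiescent, 5 were higher, none lower and 4 not called, with a median of 0.95. Over all tested genes 11.7% were called higher. Against mural cells alone 4 of the 9 were higher and 5 not called (median 0.35), where 7.94% of all tested genes were called higher. Endoglin (Eng), the co-receptor of ALK1, had levels of 9.45 and 7.72 and differed by 2.19 ± 0.21. The ALK1 gene Acvrl1 had 2.38 and 2.95, and the receptor gene Bmpr2 4.80 and 3.88. The target genes Id1 (2.07 and 1.83) and Id3 (3.71 and 4.06) were also higher, by 1.22 ± 0.17 and 1.10 ± 0.19. Among ligands under the filter, Bmp6 was at 1.1 and 1.18 and Bmp4 at 0.114 and 0.0394.

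Junction genes were mostly higher, 10 of 14 tested with 4 not called and a median of 1.18. Pecam1 had 13.9 and 13.0 and Esam 4.64 and 4.74, both adhesion molecules of endothelial contacts. Jam2 differed by 1.60 ± 0.16 and the gap junction gene Gja1 by 1.55 ± 0.15. F11r, which epithelial and blood cells share, had 3.54 and 3.73 in endothelial, 3.13 and 3.07 in immune and 2.44 and 2.70 in follicular cells, and differed by 0.80 ± 0.17. The occludin gene Ocln was near 0, at 0.0999 and 0.0476.

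The caveolae, flask-shaped pits that carry cargo across the vessel wall, were represented by 8 tested genes, of which 7 were higher and 1 was not called (median 1.36). Cav1 had levels of 4.36 and 4.17 and differed by 1.78 ± 0.18. Cav2 had 2.5 and 2.36, and Cavin2 3.53 and 3.47. Ehd4, which shapes membrane at vesicle necks, had 7.70 and 7.65 and differed by 2.02 ± 0.19. Cavin1 had 2.21 and 2.44, within the mural values of 1.98 and 2.48.

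**Figure D2:**
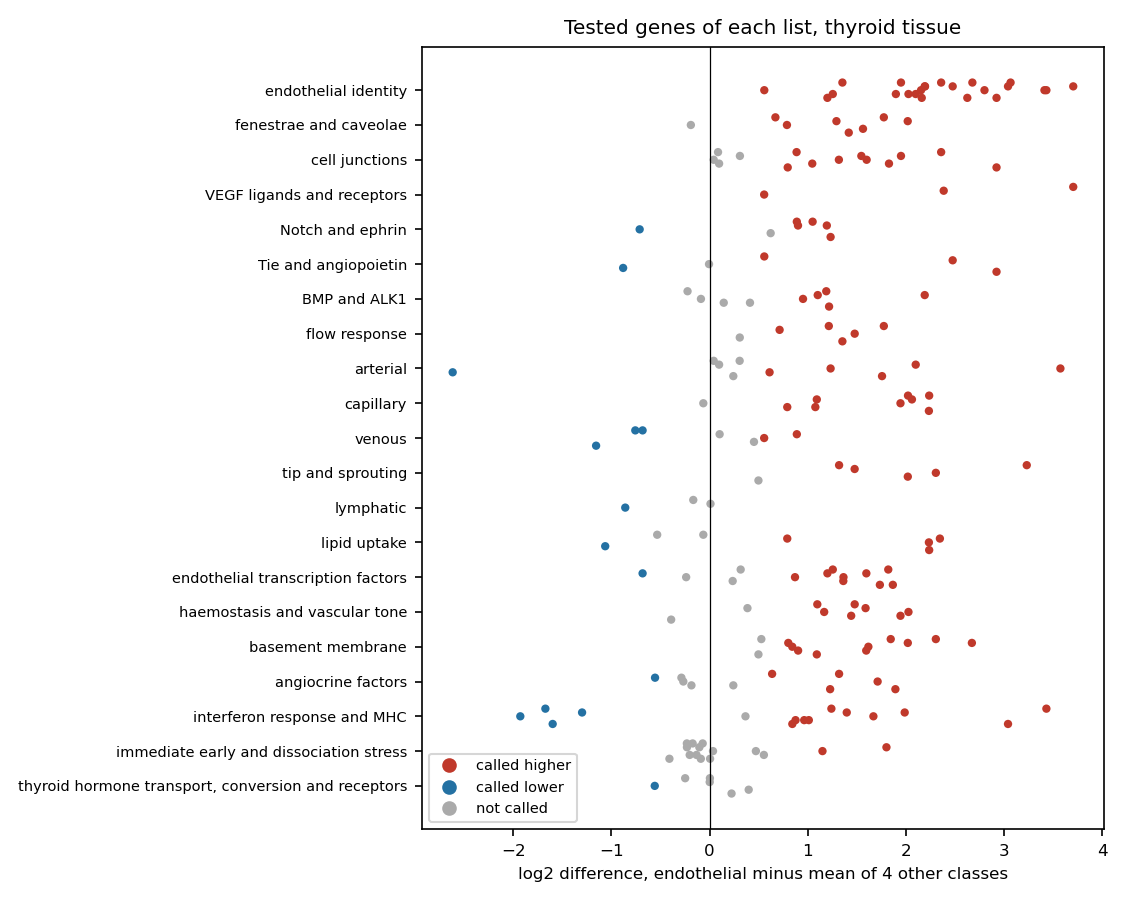
Log2 difference between endothelial cells and the mean of 4 other classes (x axis) for each tested gene of the lists with at least 3 tested genes (y axis), with points coloured by the limma call. The endothelial identity list, picked for endothelial expression, and the basement membrane list hold no gene called lower. Most immediate early and stress genes lie near 0.

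Among the transcription factors of endothelium, 9 of 13 tested genes were higher and 1 lower, with a median of 1.26. The ETS factor genes Erg (2.10 and 1.96), Fli1 (3.42 and 2.84), Ets1 (3.25 and 4.36) and Elk3 (5.27 and 4.40) differed by 1.26 ± 0.18, 1.20 ± 0.17, 1.36 ± 0.18 and 1.74 ± 0.22. Fli1 was also present in immune cells at 2.00 and 2.29. Tcf4 had 19.0 and 19.9, Mef2c 7.67 and 7.92, and the hypoxia-inducible factor gene Epas1 10.1 and 10.1. Sox18 was under the filter, with 2.69 and 1.21 against at most 0.247 elsewhere. Nr2f2, which directs venous and lymphatic fate, was the gene called lower, at 0.215 and 0.0683, with 2.67 and 1.97 in mural and 1.52 and 2.46 in fibroblast cells, and its call was lost under 4 of 16 alternatives.

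Genes of flow response, haemostasis and vascular tone were mostly higher where they could be tested. Of 6 tested flow genes 5 were higher (median 1.28), among them Klf2 (1.62 and 2.15), Klf4 (1.38 and 1.42) and Thbd, the thrombin-binding thrombomodulin (2.30 and 3.31). The call of Klf4 was lost under 3 of 16 alternatives. Nos3, the endothelial nitric oxide synthase, was under the filter with 1.19 and 0.982 against at most 0.139 elsewhere. Of 9 tested genes of haemostasis and tone 7 were higher and none lower (median 1.44). The von Willebrand factor gene Vwf was under the filter, at 0.975 and 0.549 in endothelial and 0.367 and 0.881 in follicular cells. The endothelin receptor gene Ednrb had 4.39 and 4.55 and differed by 1.94 ± 0.18. Calcrl (3.91 and 3.39) and its partners Ramp2 (3.13 and 4.53) and Ramp3 (1.80 and 2.76), which form receptors for adrenomedullin and related peptides, were all higher.

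Basement membrane genes were higher in 10 of 12 tested cases and lower in none (median 1.34). Against mural cells alone 5 of the 12 were higher and 7 not called (median 0.66), where 7.94% of all tested genes were called higher. The collagen IV chains Col4a1 (21.1 and 22.9) and Col4a2 (16.2 and 16.6) were present in mural cells at 9.24 and 11, and 9.78 and 7.38. These genes overlap on opposite strands. Col15a1 had 5.84 and 6.19, and the perlecan gene Hspg2 4.74 and 3.97. Sparc had 23.2 and 26.1, with 40.7 and 32.8 in mural and 0.59 and 1.91 in immune cells, and differed from the mean of the classes by 1.09 ± 0.20.

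Factors by which endothelium acts on its neighbours were split. Of 10 tested genes 5 were higher and 1 lower (median 0.44). Pdgfb, which recruits pericytes, had 2.92 and 2.88 and differed by 1.32 ± 0.18, and was also found in immune cells at 1.96 and 1.21. Kitl, the ligand of the receptor KIT, had 5.47 and 4.41, Pdgfd 5.18 and 4.91 and Sema3f 1.47 and 2.04. Hgf was at 0.106 and 0.0386, and Wnt9b had 0 UMIs in the 5 classes.

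The lists of vessel type were mixed. Among capillary genes, 8 of 9 tested were higher (median 1.94). Rgcc had 5.41 and 6.96, the carbonic anhydrase gene Car4 2.97 and 4.51, and Aplnr, under the filter, 1.86 and 1.65. Of 10 arterial genes tested 5 were higher and 1 lower (median 0.46), and the higher ones included Igfbp3, Efnb2 and Ltbp4 (7.12 and 7.35), which are not limited to arteries. The connexin gene Gja5 was at 0.765 and 0.385, between the lowest value of another class, in fibroblast cells of tissue 2 (0.0761), and the highest, in follicular cells. Of 7 venous genes 2 were higher and 3 lower (median 0.10), and the venular adhesion genes Ackr1, Sele and Vcam1 stood at 0.143 or less. In the sprouting list 5 of 6 tested were higher (median 1.75), with Esm1, Col4a1 and Col4a2 among them, while the tip cell genes Apln (0.157 and 0.0366) and Angpt2 (0.202 and 0.285) were low.

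Lymphatic genes were sparse in most cells, apart from Flt4, Reln and Pdpn. Flt4 was seen in 32.2% and 34.7% of the cells and Reln in 31.4% and 24.6%. Pdpn was seen in 15.7% and 16.1% (levels 0.415 and 0.481, and 0.454 to 0.999 in mural cells). The share with Flt4 was 13.2% and 12.7% after thinning to 1000 UMIs, against 0% and 0% of follicular cells (0% and 2.38% before thinning). For Reln it was 10.7% and 8.47% after thinning, against 0% and 4.76% of follicular cells (11.3% and 19.0% before thinning). The share with Pdpn was 0.826% and 4.24% after thinning to 1000 UMIs, against 5.66% and 9.52% of follicular cells (9.43% and 14.3% before thinning). For Pdpn the endothelial share after thinning was thus no higher than this background. The rule selects on Plvap and Emcn, genes of blood vessels, so lymphatic cells could be missed by it. Of 3 tested none was higher and 1 was lower (median -0.17). Of the 239 cells, 34 held at least 1 UMI of Prox1, Lyve1, Mmrn1 or Ccl21a and 4 held at least 2 of these genes. A cell of tissue 1 held 9 UMIs of Lyve1, 48 of Ccl21a, 1 of Prox1 and 1 of Mmrn1, with 0 of Plvap and Emcn. A cell of tissue 2 held 3 of Lyve1 and 1 of Prox1, again with 0 of Plvap and Emcn. The other two, 1 of them the cell of 151110 UMIs, held Emcn.

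Adhesion molecules for leukocytes were low outside those that endothelium carries at rest. The 2 tested genes, Pecam1 and Cd34 (5.58 and 6.58), were both higher. Icam2 was under the filter, with 1.98 and 1.31 against at most 0.132 elsewhere, and Icam1 stood at 0.143 and 0.261.

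Of 7 tested genes of lipid uptake 4 were higher and 1 lower against the other classes (median 0.79). Gpihbp1, which anchors lipoprotein lipase on the capillary surface, had 3.75 and 4.38 and at most 0.213 elsewhere (2.23 ± 0.14), so that it passed the filter only through its endothelial level. Cd300lg had 6.95 and 6.12, and the HDL receptor gene Scarb1 5.79 and 7.85, with a difference of 2.35 ± 0.18. Lpl, the lipase itself, was lower, at 0.387 and 0.385 against 6.06 and 4.84 in fibroblast cells. Against mural cells 3 of the 7 were higher and 4 lower, the latter being Lpl, Fabp4, Cd36 and Pparg. Over all tested genes 7.94% were called higher and 5.88% lower in that comparison.

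The second comparison set the endothelial cells against the mural cells, the pericytes and smooth muscle cells that surround the same vessels, in the same fit, so both comparisons share the endothelial samples. Of the 4574 genes 363 were called higher (7.94%) and 269 lower (5.88%), and the median over all genes was -0.0040. With summed UMIs 257 were higher and 111 lower. The 10 genes with the largest difference, led by Flt1 (4.07 ± 0.23), Ly6c1 (3.79 ± 0.28) and Podxl (3.78 ± 0.31), all belonged to the 20 described above.

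The genes lower than in mural cells were led by Mgp, the matrix Gla protein that inhibits calcification, with 0.752 and 0.724 in endothelial and 39.8 and 40 in mural cells (-4.56 ± 0.26, limma adjusted p = 5.33e-09). Steap4 (0.0481 and 0.0270 against 7.05 and 11.4) and the potassium channel subunit gene Abcc9 of pericytes (0.357 and 0.325 against 9.76 and 10) followed. Aspn had 0.1 and 0.0529 against 8.28 and 7.01. H2-M9, an MHC gene of a family of similar genes, had 0.0804 and 0.11 against 11.7 and 4.85, and its mural values differed between the samples by more than those of the other genes named here.

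Receptors and ligands were divided between the layers. Pdgfb was higher in endothelial than in mural cells (1.85 ± 0.22) and Pdgfa lower (0.168 and 0.262 against 1.5 and 1.73, -1.10 ± 0.22). The endothelin receptor gene Ednrb was higher (1.38 ± 0.22) and Ednra, the receptor that mediates contraction of smooth muscle, was lower (0.686 and 0.548 against 3.19 and 3.29, -1.39 ± 0.28). The call of Ednra was lost under 4 of 14 alternatives, and those of Pdgfa and Lpl under 3 of 14 each. Heyl differed by -1.75 ± 0.22, Angptl2 by -2.36 ± 0.21, Nr2f2 by -1.53 ± 0.23 and the connexin gene Gja4 by -1.11 ± 0.22. Fabp4, often used as a capillary marker, had 3.76 and 4 in endothelial and 10.2 and 11.7 in mural cells (-1.29 ± 0.22, limma adjusted p = 0.000407). The nuclear receptor gene Pparg had 1.32 and 0.805 against 5.31 and 6.64, Cd36 0.911 and 0.484 against 2.01 and 2.02 (a call lost under 7 of 15 alternatives), and Lpl 0.387 and 0.385 against 1.87 and 2.02. The 4 adipocyte markers summed to 0.411 and 0.151 in the endothelial cells.

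**Figure D3:**
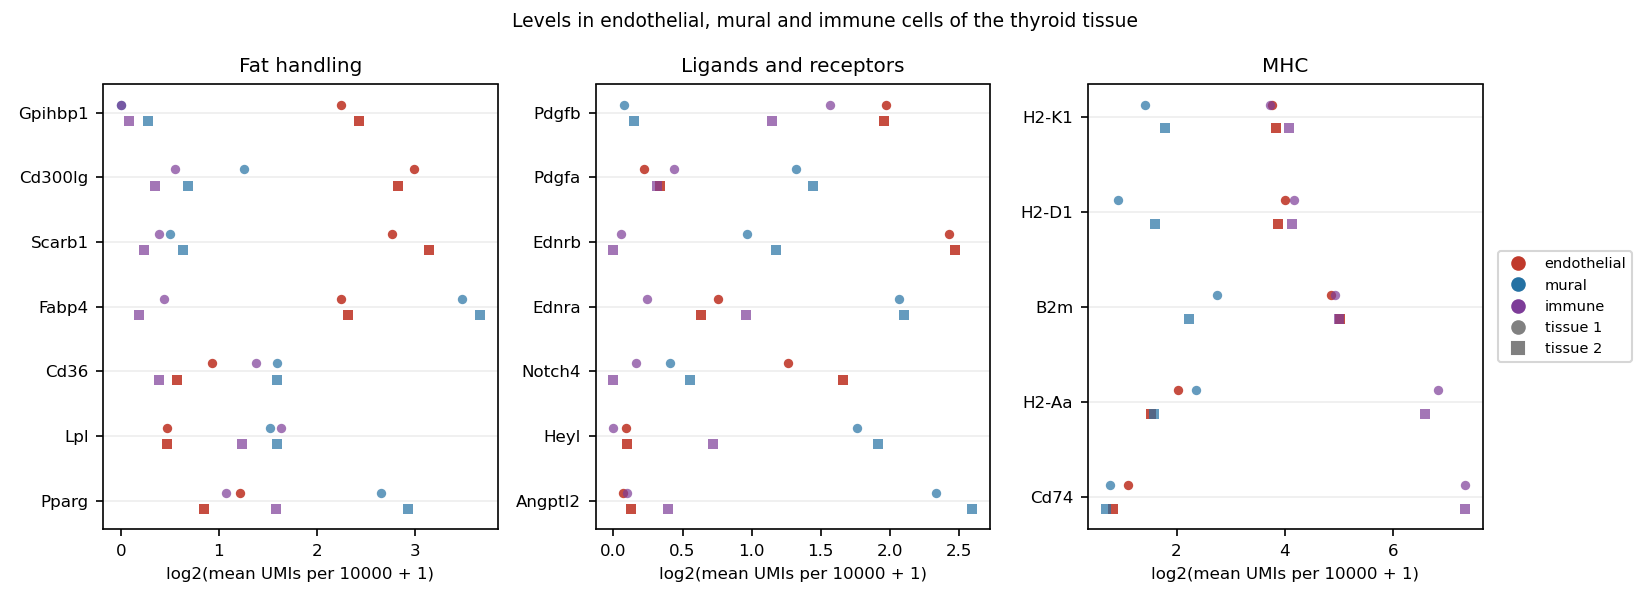
Levels as log2(mean UMIs per 10000 + 1) in endothelial, mural and immune cells of tissue 1 (circles) and tissue 2 (squares), for genes of fat handling, signalling and MHC. Gpihbp1 was at most 0.213 UMIs per 10000 in mural and immune cells, Fabp4 was highest in mural cells, and the class II genes H2-Aa and Cd74 stood apart in immune cells.

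Genes of antigen presentation were also divided. Of 15 tested genes of the interferon and MHC list 10 were higher and 4 lower (median 0.96). The class I genes H2-K1 (12.6 and 13.3), H2-D1 (15.1 and 13.6) and B2m (27.9 and 31.5) were close to the values of immune cells (12.2 and 15.9, 16.9 and 16.6, and 29.7 and 31.2). Against mural cells they differed by 2.20 ± 0.22, 2.68 ± 0.24 and 2.44 ± 0.23. Ly6e had 25.1 and 21.8. The 4 genes called lower were the class II genes H2-Aa, H2-Ab1 and H2-Eb1 and the invariant chain gene Cd74, which had 1.16 and 0.781 against 160 and 160 in immune cells. H2-Aa had 3.07 and 1.90 in endothelial cells, against 2 to 5.66 in mural, fibroblast and follicular cells. Class I genes are close copies of each other, and their reads may be shared.

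The genes called lower against all classes were led by Mgp (-2.62 ± 0.20), the actin-severing gene Gsn (2.20 and 0.846, -2.13 ± 0.17), Cd63 (0.0520 and 0.429, -2.02 ± 0.19), Cd74 (-1.93 ± 0.21) and Zeb2 (0.127 and 0.368, -1.88 ± 0.17). Each was high in a different set of classes. Gsn stood at 79.6 and 65.0 in fibroblast cells, Cd63 at 9.19 and 7.78 in follicular cells, and Zeb2 at 4.53 to 6.86 in mural, immune and fibroblast cells. Of the 332 genes called lower, 133 were highest in immune, 81 in mural, 73 in follicular and 45 in fibroblast cells, and 51 lay below each other class in both samples.

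Receptors of thyroid hormone were looked at because the gland makes the hormone. The receptor genes Thra (0.449 and 0.512) and Thrb (1.24 and 0.820) were not called against the other classes. Genes of the blood-brain barrier were low. Mfsd2a, Slc2a1 and Slco1c1 stood at 0.0484 or less, and only Abcg2 of that list was tested and was higher (2.22 and 1.99).

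None of the 10 listed cell cycle genes passed the filter. Pcna, a replication and repair factor, was seen in 15.7% and 19.5% of the cells (levels 0.449 and 0.612, with 0.207 to 0.575 in mural cells). This was 1.65% and 4.24% after thinning to 1000 UMIs, against 0% and 2.38% of follicular cells (5.66% and 11.9% before thinning). Of 239 cells, 25 held a UMI of at least 1 of Mki67, Top2a, Ccnb2, Cdk1 and Birc5, and 2 held at least 2 of these genes, 1 of them the cell of 151110 UMIs.

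Immediate early and stress genes, which tissue dissociation can induce, were called higher in 2 of 15 cases and lower in none (median -0.09), a share close to the 11.7% of all tested genes called higher. Hspb1 had 5.97 and 7.07 and differed by 1.80 ± 0.18, and the nuclear receptor gene Nr4a1 had 2.25 and 2.41 and differed by 1.15 ± 0.22. Fos had 1.74 and 1.74 against 3.68 and 3.92 in mural cells, and Egr1 1.73 and 1.17 against 3.34 and 2.70, and neither was called in either comparison.

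Endothelial cells of the 2 samples differed little. Over the 4574 genes the median absolute difference between them was 0.13 on the log2 scale and the 95th percentile 0.41, and 2 genes differed by more than 1. Among genes at 2 or more per 10000, the largest differences toward tissue 2 were those of 4930589L23Rik (1.88 and 5.00), Ttc28 (23.9 and 46.1), Samd12, Camk1d and Cmss1. Ttc28 differed in the same way in the follicular cells (33.7 and 67.8). Toward tissue 1 they were Lima1 (3.45 and 1.5), mt-Td (5.73 and 2.96), Gm10800, Gm33838 and Gm21738. None of the top 5 in either direction belonged to the lists of vascular genes, and with 1 value a sample no test was made.

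Leiden clustering split the endothelial cells into 3 groups, which are described by their leading genes and were not tested. Cluster 1 held 43.8% and 35.6% of the cells of tissue 1 and tissue 2, cluster 2 held 27.3% and 34.7%, and cluster 3 held 28.9% and 29.7%, with overlapping intervals between the samples. Median depth was alike, between 3140 and 4144 UMIs.

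Cluster 1 was led by Ccl21a, through few cells, then Cd36, Gja4, Vwf, Fbln2, Aqp1 and Sema3g. Gja4 had 1.21 and 1.12 in this cluster and at most 0.335 in the others, and Aqp1, a water channel, 4.56 and 6.68 against at most 2.19. Of its 10 leading genes 3 were on the arterial list and 1 each on the capillary, venous and lymphatic lists. Gja4 was detected in only 21.1% of its cells, and the cluster was given no vessel type. Gpihbp1 was higher in cluster 2 (6.52 and 7.30) than in cluster 1 (2.70 and 3.18) or cluster 3 (2.72 and 2.41).

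Cluster 2 was led by immediate early genes. Egr1 had 5.18 and 3.07, and at most 0.572 in the other clusters, and Fos 4.73 and 4.02 against at most 0.868. Of the 18 genes of the stress list 15 were highest in this cluster in both samples, and the list summed to 47.5 and 45.3 against 21.2 and 20.4 in cluster 1 and 8.41 and 10.7 in cluster 3. The clusters were formed from variable genes of these same cells, with stress genes not left out, so this is a description only. The share of all genes that were highest in this cluster was not computed. The sums of the capillary list (99.4 and 98.6) and the sprouting list (87.4 and 81.0) were highest here as well. Of the 16 capillary genes 5 lay above both other clusters in both samples, as did 6 of the 14 sprouting genes. The capillary sum includes Sparc (34.9 and 35.0) and the rule gene Kdr (17.4 and 17.1). Aplnr had 3.49 and 2.13, against 1.33 and 2.07 in cluster 1, and Pcna was among the leading genes.

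Cluster 3 was led by predicted genes. Gm10801 reached a mean of 387 UMIs per 10000 there and 52.8 in the other endothelial cells, and Gm10800, Gm10717, Gm10719 and Gm21738 were raised with it. The 6 Gm genes summed to a median of 349 and 226 in cluster 3, 47.6 and 25.6 in cluster 1, and 34.5 and 40.1 in cluster 2. The same sum had medians of 114 and 81.6 in mural cells and 107 and 85.1 in fibroblast cells, so it was not limited to the endothelium. The sums of the fenestrae and caveolae (31.1 and 25.4), capillary (44.9 and 43.7) and venous (32.3 and 27.2) lists were lowest in this cluster. So were those of the sprouting (42.4 and 41.2), arterial and stress lists, leaving the lymphatic list as the exception among the 7 summed. The fenestrae and caveolae list and the venous list hold Plvap, and the capillary list holds Kdr, genes that chose the cells. Plvap stood at 18.3 and 12.6 in cluster 3, against 28.4 to 35.8 in the other clusters. The order of these lists thus rests partly on genes of the rule, and sums without them were not made. Flt1 (37.5 and 36.6) was close to the 39.6 to 44.7 of the other clusters. What divides cluster 3 from the rest was not tested.

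**Figure D4:**
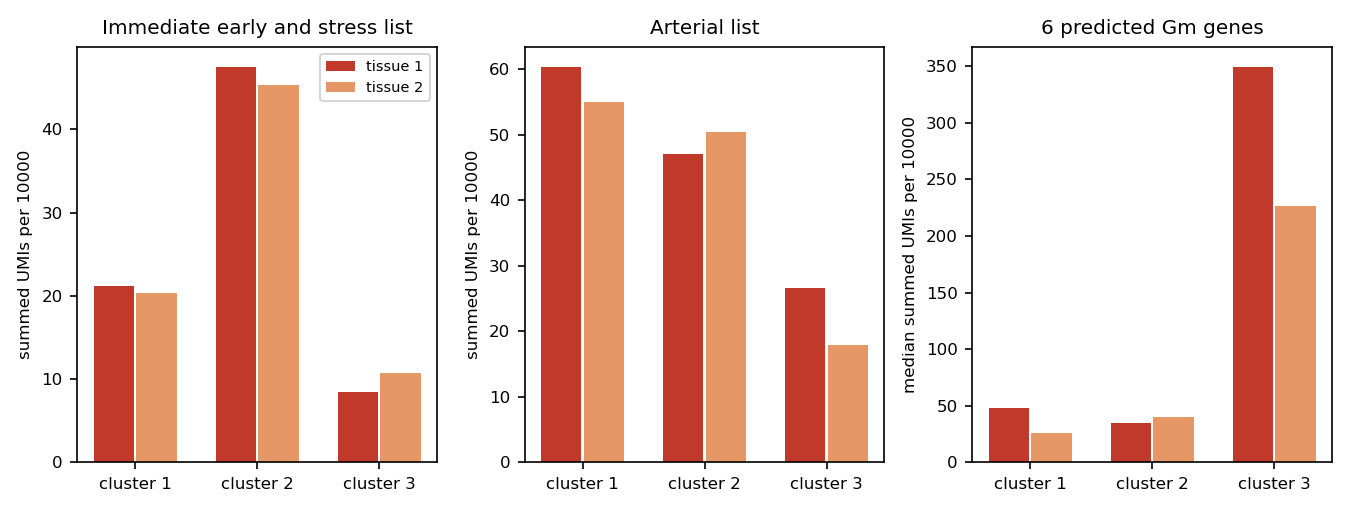
Bars show, for the 3 clusters of endothelial cells in tissue 1 and tissue 2, the summed UMIs per 10000 of the immediate early and stress list and of the arterial list, and the median sum of 6 predicted Gm genes. Cluster 2 was highest for the stress list (47.5 and 45.3) and cluster 3 for the Gm genes (349 and 226) in both samples.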

How the data were processed

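The values deposited by the authors cover 30879 genes in 2590 cells, scaled to 10000 UMIs per cell and put on a natural log scale after adding 1. Per the labels, cells were sorted for SORT-seq, and the submitters' processing notes name Trim Galore 0.4.3, STAR 2.5.3a, Seurat, GRCm38 and mm10. After the log was undone, division by each cell's smallest value gave whole UMIs for 100% of values (tolerance 0.01). Classes were set by marker means, and those with at least 10 cells in both tissue samples were fitted with limma 3.58.1 (trended empirical Bayes, R 4.3.3) on log2(mean per 10000 + 1). A test for counts was not used because cells are not replicates and the deposited unit is a log. Each tissue sample contributes a value per class, which leaves 4 residual degrees of freedom. The error is the spread of class values between the 2 samples, pooled over all fitted classes, after a shift common to a sample is removed. Empirical Bayes adds 12.9 prior degrees of freedom taken from the other genes. The p-values thus do not measure the spread of the endothelial cells alone. The added 1 understates the change of low genes. The fit against the other classes was tested on simulated data with 200 changed genes. Unchanged genes had the same mean level in every class, and all classes had the endothelial median depth. The spread between profiles was assumed, and no extra spread between cells was added. In that setting the fit recovered 3.57% of 1.5-fold, 28% of 2-fold and 82.6% of 4-fold changes, with 0 false calls. The real classes differ in level and depth, so these rates need not hold for the data. A gene not called may thus still differ. Clusters came from scanpy 1.11.5 (Leiden, resolution 0.5, igraph 0.11.9) on up to 1000 variable genes, without the 4194 genes whose level followed the well barcode in TFCO cells above 0.05. Doublets were not called. Cells were sorted singly into wells, and wells that received more than 1 cell were not looked for.

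Named genes are the 6 of the rule, list members (a result on hormone transport is not reported here), and by size of difference the 20 higher and 5 lower genes, the 10 higher and 5 lower against mural cells, and 5 in each direction between samples. Gm20532 was added after its value was seen. The members and lists were chosen with earlier results of these data known. Of 105 genes looked up in GENCODE M21, 6 share exons with a gene on the same strand and 20 overlap one on the opposite strand. Classes were rebuilt here and may differ from the study's own clusters.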

Additional observations from a re-analysis of the deposited data

How the results depend on the processing

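None of the 90 named differences against other classes or the 34 against mural cells changed direction under the alternatives in which it could be computed, and 15 and 6 of them lost their call at least once. Every called gene already had the same direction in both samples, so leaving out a sample could not reverse it. The other alternatives reuse mostly the same cells. Against the other classes 869 genes were called. The count was 495 with UMIs summed over cells, 559 with no expression filter, 261 with a filter at 2 per 10000 (688 genes tested), 1496 with the other classes pooled (1 residual degree of freedom) and 386 with cells thinned to 1000 UMIs. Against mural cells 632 were called, and 368, 163 and 343 with summed UMIs, the filter at 2 and thinning. Summing without cells above 20000 UMIs, an alternative chosen after seeing the data like the following pair, gave 888 and 683. Leaving those cells out of the means gave 861 and 626, and leaving out genes that follow the well barcode 733 and 551. Without the replicate block (the tissue sample as a term) the counts were 839 and 611. Sample numbers do not pair tissue with TFCOs, which are not compared here. Without either tissue sample there are no residual degrees of freedom, so sizes only were computed. The endothelial share of 41.4% was 35.4% at a depth minimum of 500, 47.4% at 2000, 36.6% with an endothelial mean of 1 or more, 47.4% with the gate on 3 genes and 38.8% with Tg under 50, and 39.7% to 43.2% without either sample.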
